A study of Homo sapiens with 8 samples.

Results

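The ADAR family holds the 3 human genes for adenosine deaminases acting on RNA and their close relative: ADAR, ADARB1 and ADARB2. The members were taken as the rows of the count files whose Ensembl identifier carries 1 of these symbols in GENCODE, which gave 3 of 58735 genes listed, each with 1 row. The family was selected on the measured difference between treated and control libraries, in which ADARB1 was among the largest rises, so that difference is given below as a description without a test. ADAR and ADARB1 had enough counts to enter the fit across all genes, and ADARB2 did not.

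The cells were 22Rv1, a human castration-resistant prostate cancer line that grows as an established culture. Both groups consisted of this line: 4 libraries of cells given DMSO, the vehicle, called control, and 4 libraries of cells given PCC0208017, which the submitters describe as an inhibitor of the kinase MARK3, called MARK3i. The labels state neither a dose nor a time, nor what separates the replicates of a group (cultures or aliquots), so p-values measure the spread between these libraries, which may be technical. Total counts were 12672817 to 13386143 in control and 13517289 to 21271127 in MARK3i libraries, the highest being MARK3i replicate 2. The identity of the cells was checked against luminal prostate markers: all 13 passed the filter on low counts, KRT8 among them, and their summed level was 3202 to 3244 CPM (each gene's counts scaled to a common library total) in control and 2102 to 2200 CPM in MARK3i libraries, with 11 of the 13 called lower (edgeR, Benjamini-Hochberg adjusted p under 0.05). Over all 16452 tested genes, 28.3% were called lower. The fall in markers was uneven: with TMM scaling between libraries, mean KLK3 went from 21.6 to 0.817 and TMPRSS2 from 85.5 to 7.33 CPM. On that scale KRT8 was at 590.3 and 551.2 CPM and EPCAM at 97.6 and 99.7 CPM. In bulk RNA of this line, fewer cells expressing a gene and less of its RNA per cell cannot be told apart. The part of this fall in the values of the members was not tested.

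ADAR enzymes bind double-stranded RNA and convert adenosine to inosine, which the ribosome and reverse transcriptase read as guanosine. ADAR makes a nuclear form and a longer, interferon-inducible form that also works in the cytoplasm and marks the cell's own double-stranded RNA so that innate sensors do not respond to it. ADARB1 encodes a nuclear enzyme best known for recoding transcripts of neurotransmitter receptors, and ADARB2 encodes a largely brain-restricted member for which no editing activity is established. Counts per gene hold neither base changes nor isoforms, so editing itself and the forms of ADAR were not measured.

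The sequences before the most upstream RefSeq starts of the 2 expressed members are shown because these genes share an enzymatic role but differed in how far they moved with treatment. Each line covers the bases from 250 to 21 before the most upstream RefSeq start (GRCh38.p14), written 5′ to 3′ along the gene's strand, and none of these bases lies in an annotated exon of a member. The ADARB1 window lies 475 to 704 bases after the earlier start that GENCODE gives for this gene, between its annotated exons; the ADAR window lies before the GENCODE start. Capitals mark matches to the motifs searched on both strands.
ADAR, chr1:154628018-154628247, minus strand: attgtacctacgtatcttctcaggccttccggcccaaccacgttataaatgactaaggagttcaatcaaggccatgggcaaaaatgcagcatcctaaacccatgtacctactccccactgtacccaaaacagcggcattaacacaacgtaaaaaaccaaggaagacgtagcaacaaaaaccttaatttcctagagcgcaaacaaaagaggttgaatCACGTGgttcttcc
ADARB1, chr21:45074328-45074557, plus strand: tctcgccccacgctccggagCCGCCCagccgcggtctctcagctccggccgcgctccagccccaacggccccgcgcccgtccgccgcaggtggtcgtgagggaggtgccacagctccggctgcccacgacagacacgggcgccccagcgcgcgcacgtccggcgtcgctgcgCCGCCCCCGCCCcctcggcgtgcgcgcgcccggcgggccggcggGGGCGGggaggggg

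These windows differed in base composition. The ADARB1 window had a GC content of 82.6% and 40 CpG dinucleotides, and the ADAR window had 44.3% and 8, against medians of 57.4% and 9 over 27305 promoter windows of the same length, 1 per gene. ADARB1 held 4 matches to the GC box GGGCGG, beginning 230, 78, 72 and 34 bases before the start, a motif present in 39.5% of all windows. ADAR held 1 match to the E-box CACGTG, 34 bases before the start, a motif present in 5.88% of all windows. The core of the interferon-stimulated response element, searched as GAAA, any 2 bases and GAAA again (2.77% of windows), the cAMP response element TGACGTCA (1.51%), the TGACG that lies within it (19.8%) and CCAAT (31.7%) had no match in either window, which says only that these letters are not there. Only the most upstream start of each gene was searched, so any other start of ADAR, including one for its interferon-inducible form, was not covered. No factor binding was measured in these cells.

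ADARB1 (ENSG00000197381; chromosome 21, 45073853 to 45226560, plus strand, hg38) stood near the middle of all tested genes in control and among the higher ones in treated libraries (percentiles 52.0 and 85.5 of the level in CPM). Its raw counts were 289, 277, 256 and 288 in control replicates 1 to 4 and 1210, 2277, 1252 and 1315 in MARK3i replicates 1 to 4. All levels below are CPM with TMM scaling between libraries, except the sums of cell type markers. On this scale the counts were 22.6, 21.9, 20.9 and 22.4 in control and 84.2, 102.1, 87.5 and 90.7 in MARK3i libraries. The lowest treated library lay far above the highest control, and the groups did not overlap. The highest value was in MARK3i replicate 2, the library with the most counts. The means were 21.96 ± 0.739 and 91.10 ± 7.79 CPM (SD, n = 4), a log2 change of 2.05 ± 0.08 (SE), or 4.15-fold. This was the fifth largest rise among 10270 genes averaging 10 CPM or more over the 8 libraries, and rank 67 of all 16452 genes tested. These ranks describe the choice of the gene and carry no test.

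ADAR (ENSG00000160710; chromosome 1, 154581695 to 154628013, minus strand) was abundant in both groups. Its raw counts were 5002, 4840, 4542 and 4860 in control and 5646, 8226, 5577 and 5193 in MARK3i libraries. As CPM, control replicates 1 to 4 held 390.8, 382.5, 371.5 and 378.3, and MARK3i replicates 1 to 4 held 392.7, 368.8, 389.6 and 358.2. The groups overlapped, with the highest and the lowest of the 8 values both in treated libraries. The means were 380.8 ± 8.08 and 377.3 ± 16.6 CPM, a log2 change of −0.013 ± 0.053 (SE, n = 4 per group). With total counts in place of TMM scaling the ADAR change was 0.092, and the median of all tested genes moved by about the same amount, from 0.021 to 0.126. ADAR ranked 8735 of the 16452 tested genes by its change. The corresponding ADARB1 change with total counts was 2.16.

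ADARB2 (ENSG00000185736; chromosome 10, 1177313 to 1737525, minus strand) was all but undetected. It had 1 count in MARK3i replicate 1, 1 in MARK3i replicate 4 and 0 in each of the other 6 libraries. A count of 0 allows up to 3 counts, which is 0.234 to 0.245 CPM in the control libraries and 0.134 to 0.210 CPM in the treated ones, a limit that covers counting error only. No fold change is given, since both groups lay under this limit. Of the 2 tested members, 1 had groups that did not overlap, with MARK3i higher. Over all 16452 tested genes the groups did not overlap in 50.9%, with MARK3i higher in 25.8%. Since the change of ADARB1 chose the family, nothing is read from this count.

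**Figure D1:**
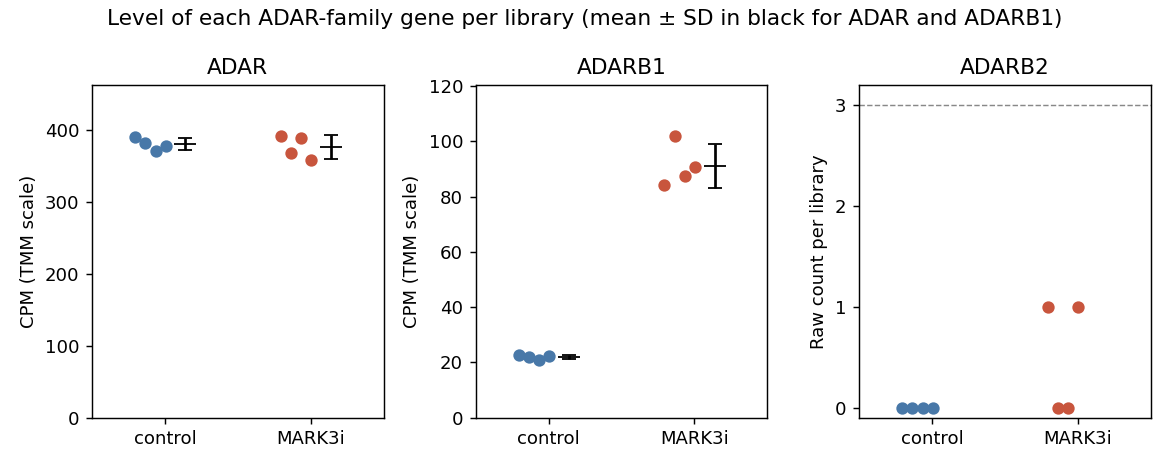
Level of ADAR and ADARB1 in CPM on the TMM scale (y axis from 0) and raw count of ADARB2 (dashed line, the 3 counts that a count of 0 allows) in 4 control libraries (blue) and 4 MARK3i libraries (red), with the mean ± SD in black for ADAR and ADARB1. ADARB1 lies at 20.9 to 22.6 CPM in control and 84.2 to 102.1 CPM in MARK3i libraries, the ADAR values of both groups overlap, and ADARB2 has at most 1 count.

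Levels of the genes were set against each other per length, as CPM divided by the kilobases covered by annotated exons (12242 bases for ADAR, 10298 for ADARB1 and 10567 for ADARB2). On this scale the order in every library was ADAR, then ADARB1, then ADARB2. ADAR stood at 31.11 ± 0.660 CPM per kb in control and 30.82 ± 1.35 in MARK3i libraries. ADARB1 stood at 2.13 ± 0.072 and 8.85 ± 0.757 CPM per kb. These neighbours in the order did not overlap in either group: the lowest ADAR value was 29.3 and the highest ADARB1 value 9.91 CPM per kb.

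The makeup of the family's transcripts differed between the groups. ADARB1 per length was 6.87, 6.80, 6.70 and 7.04% of ADAR in control replicates 1 to 4, and 25.5, 32.9, 26.7 and 30.1% in MARK3i replicates 1 to 4. The control values lay close together, and the treated ones were spread more widely, well above them. In other terms, ADAR exceeded ADARB1 14.6 ± 0.306 times in control and 3.51 ± 0.402 times in treated libraries. ADARB1 made up 6.41 ± 0.127% of the summed ADAR-family level in control and 22.3 ± 2.02% in treated libraries (SD, n = 4), and the sum went from 33.24 ± 0.719 to 39.67 ± 1.07 CPM per kb. These ratios are taken within a library and do not depend on scaling between libraries. With the longest annotated transcript as the length, ADARB1 was 6.07% of ADAR in control and 25.5% in MARK3i libraries.

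**Figure D2:**
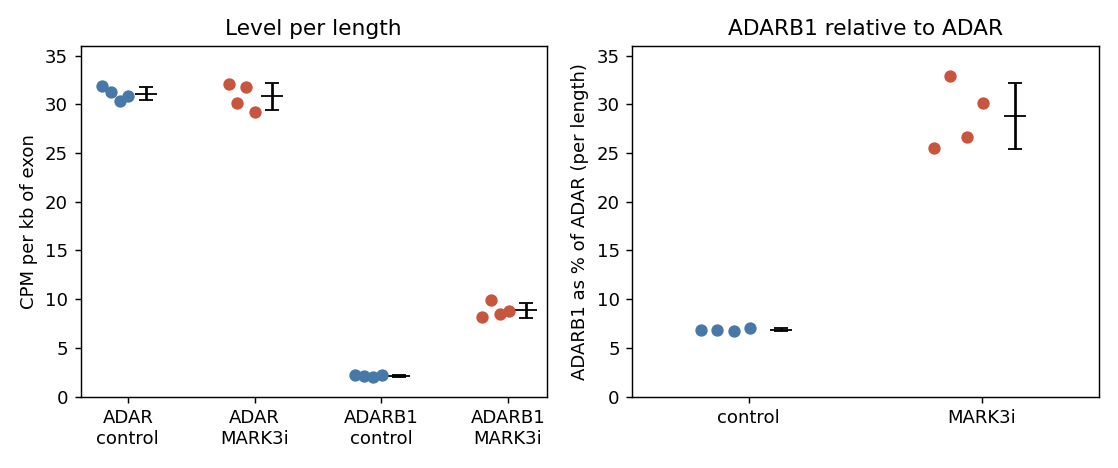
Left, ADAR and ADARB1 in CPM per kb of annotated exon; right, ADARB1 as a percent of ADAR on that scale, in 4 control (blue) and 4 MARK3i (red) libraries, with the mean ± SD in black. ADAR stays near 31 CPM per kb while ADARB1 goes from 2.13 to 8.85, so that its level relative to ADAR goes from 6.85 to 28.8%.

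Genes that overlap the members were examined because no source used here gives the strand setting of the counting. SSR4P1, a pseudogene on the opposite strand at the 5′ end of ADARB1, shares 51 of the 10298 exonic bases of ADARB1. It held 30 to 51 counts in control and 52 to 107 in MARK3i libraries, 2.84 ± 0.754 and 4.17 ± 0.488 CPM. Its change was 0.56 ± 0.19 (edgeR, adjusted p = 0.014), a call that ended without control replicate 2 (adjusted p = 0.0511) or MARK3i replicate 2 (0.0521). The non-coding gene ENSG00000267857 (chromosome 21, 45100487 to 45101094) lies within ADARB1 on the opposite strand and shares no exonic base with it. It held 0 to 2 counts in control and 10 to 43 in MARK3i libraries. If the counting ignored strand, reads from unspliced ADARB1 RNA and from this gene cannot be told apart. ADAR had no overlapping annotated gene, and the 4 genes overlapping ADARB2 that the files list, ADARB2-AS1 and LINC00200 among them, had 0 counts in all 8 libraries.

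The surroundings of the members moved in both directions. Within 500 kb of ADARB1, 14 genes were tested, of which 5 were called higher and 6 lower (edgeR, Benjamini-Hochberg adjusted p under 0.05), with a median log2 change of −0.15. Over all tested genes 29.8% were called higher and 28.3% lower, and the median was 0.021. The largest change there was in SLC19A1, the reduced folate carrier gene, 267 kb beyond the end of ADARB1. It fell from 42.6 to 9.37 CPM (−2.18 ± 0.10, adjusted p = 2.2e-15), opposite to ADARB1, and overlaps the scarcely counted COL18A1. Around ADAR, 23 genes were tested, with 6 called higher and 6 lower and a median of −0.047. PBXIP1, 316 kb from ADAR, rose from 63.7 to 147.4 CPM (1.21 ± 0.06, adjusted p = 2.6e-14). Around ADARB2, 6 genes were tested, with 2 called higher and 2 lower.

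**Figure D3:**
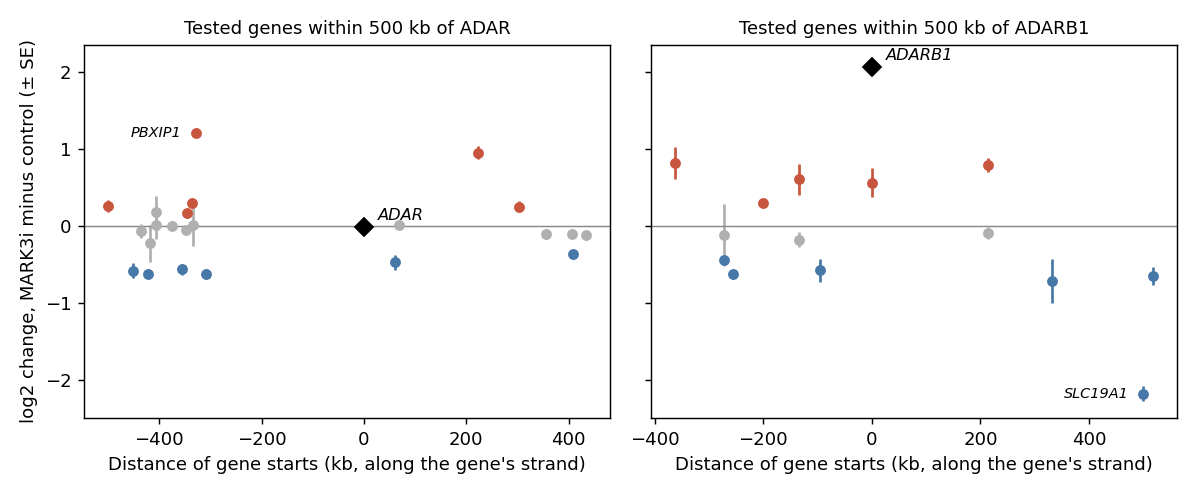
Log2 change (MARK3i minus control, ± SE) of each tested gene within 500 kb of ADAR (left) and ADARB1 (right) against the distance of its start from the start of the member in kb; red and blue points were called higher and lower, grey points did not pass, and the black diamond is the member. ADARB1 stands at 2.05 between neighbours that lie at or below 0.81, and SLC19A1 at −2.18.

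The genes with the profile most like each member were found by the Euclidean distance between log2 CPM values centred on their mean over the 8 libraries, among 10269 other genes that averaged 10 CPM or more. All 8 libraries entered, so the difference between the groups dominates the measure for ADARB1. For ADAR the measure likewise favours genes without such a difference. Nearest to ADARB1 was FEZF1 (distance 0.27, against a median of 2.90 over all candidates), a transcription factor gene, followed by the histone gene H2AC6 (0.50), the chromatin organiser gene SATB1 (0.51), the melanocortin receptor gene MC1R (0.56) and NAP1L3 (0.56). All 5 had MARK3i libraries above all controls, with log2 changes from 1.77 to 2.19. FEZF1 overlaps FEZF1-AS1 on the opposite strand, and MC1R and SATB1 overlap the more abundant TCF25 and TBC1D5 on the same strand. These overlaps are of whole gene spans. Shared exonic bases were measured only for ADARB1, so how far the overlaps affect these counts was not tested. Nearest to ADAR were ECPAS (0.054, against a median of 0.52), UBP1 (0.058), H3-3A (0.064), ELAPOR1 (0.072) and GANAB (0.075), all with overlapping groups and log2 changes from −0.042 to −0.0020.

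**Figure D4:**
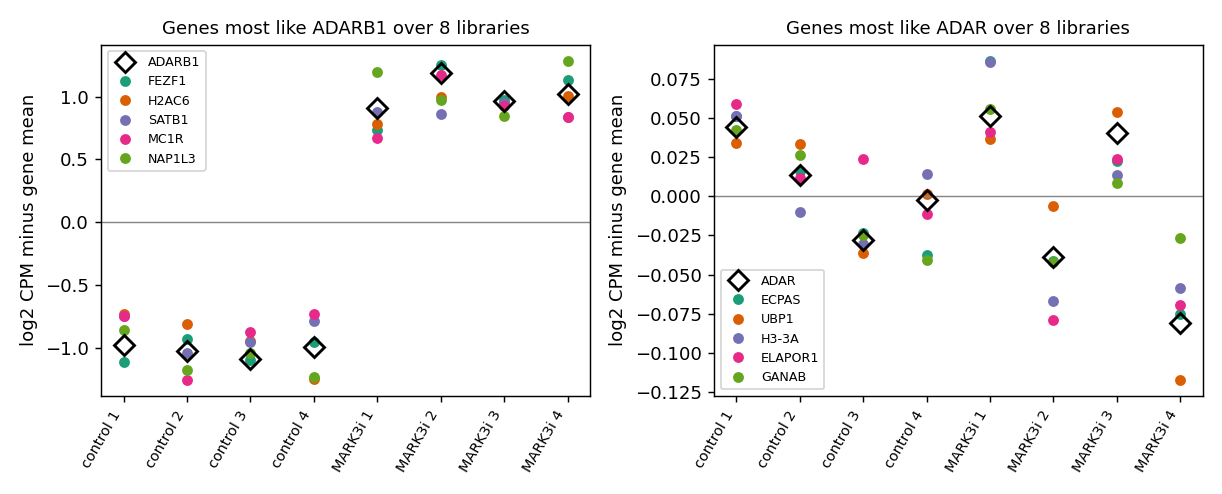
Log2 CPM minus the gene's mean over 8 libraries for ADARB1 (left) and ADAR (right, a much narrower y axis) as open diamonds and for the 5 genes nearest to each as filled points. ADARB1 and its 5 nearest genes separate the groups, whereas ADAR and its 5 nearest genes do not. The genes were chosen by likeness over these same libraries, so this contrast follows from the choice.

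The lists that follow hold other genes that act with, like or upon ADAR enzymes. Of 16452 genes tested, 58.0% were called, 29.8% higher and 28.3% lower (4897 and 4652 genes, or 6274 and 3596 with total counts), and the counts of each list are to be read against these shares. Values are log2 changes, MARK3i minus control, ± SE, from edgeR's quasi-likelihood test with n = 4 libraries per group, and adjusted p-values are Benjamini-Hochberg over all tested genes.

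Genes of type I interferon signalling, the pathway that induces the long form of ADAR, were mostly higher in treated cells. The list had 13 genes, all tested: 9 were called higher, the other 4 failed the threshold, and the median was 0.41. ISG15, a common target of the pathway, was among those that failed (−0.12 ± 0.06, adjusted p = 0.105). The transcription factor gene IRF7 rose from 8.50 ± 1.53 to 20.4 ± 1.07 CPM (1.27 ± 0.11, adjusted p = 6.49e-10). STAT2 rose from 45.2 to 78.6 CPM (0.80 ± 0.07, adjusted p = 1.88e-10); it encodes a subunit of the factor that binds interferon-response elements. SOCS1, a feedback inhibitor of the pathway, rose from only 0.316 ± 0.106 to 1.40 ± 0.275 CPM and overlaps the more abundant RMI2.

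Sensors of double-stranded RNA, whose ligands ADAR editing removes, were called higher in 8 of 11 tested cases and lower in 2, with a median of 0.25. A further 4 of the 15 listed, among them OAS1 and ZBP1, did not pass the filter on low counts. The cytoplasmic sensor genes DHX58 (1.01 ± 0.16), RIGI (0.62 ± 0.13) and IFIH1 (0.50 ± 0.14, adjusted p = 0.00337) rose from low levels of 3.62, 7.23 and 5.01 CPM. The kinase gene EIF2AK2 was at 57.5 ± 3.89 and 59.7 ± 9.58 CPM and did not pass (adjusted p = 0.617). OAS3, an oligoadenylate synthetase gene, fell from 19.4 ± 1.23 to 13.5 ± 1.56 CPM (−0.53 ± 0.10). The adaptor gene TICAM1 also fell (−0.32 ± 0.10, adjusted p = 0.0102), a call that ended with total counts (0.0741), after adjusting for transcript GC content (0.198) and without control replicate 4 (0.0511). Without MARK3i replicate 3, 5 of the list were called higher.

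Regulators and cofactors of the enzymes moved in both directions, with 10 of 19 called lower and 5 higher and a median of −0.19. With total counts 7 were called lower and 8 higher, so which direction held more genes depended on the scaling. WWP2, the gene of a ubiquitin ligase that acts against the ADARB1 protein, was at 73.4 and 72.6 CPM and did not pass (adjusted p = 0.873). CREB1 rose by 0.35 ± 0.09 with overlapping libraries. AIMP2 (−0.87 ± 0.07) and the helicase gene DHX15 (−0.54 ± 0.06) fell, and FXR1 rose (0.61 ± 0.06). AIMP2 overlaps the more abundant EIF2AK1 on the opposite strand.

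Transcripts known to be recoded by ADAR enzymes moved in both directions, with 11 of 23 tested called higher and 5 lower (median 0.20, or 0.128 after the GC adjustment). GRIA2, the glutamate receptor gene whose recoding depends on ADARB1, was at 8.42 ± 0.536 and 9.99 ± 0.591 CPM and did not pass (0.25 ± 0.11, adjusted p = 0.0606), although its groups did not overlap; it passed with upper-quartile scaling (adjusted p = 0.0346) and with total counts (0.0095). CYFIP2, recoded mainly by the ADARB1 enzyme, rose from 42.4 ± 1.93 to 57.6 ± 2.89 CPM (0.44 ± 0.07, adjusted p = 5.59e-06). The actin crosslinker gene FLNA fell from 217.4 ± 1.64 to 124.0 ± 2.22 CPM (−0.81 ± 0.05, adjusted p = 1.94e-12). The calcium channel gene CACNA1D rose from 5.58 ± 0.682 to 12.5 ± 1.92 CPM (1.17 ± 0.13), and it overlaps the more abundant CHDH and DCP1A on the opposite strand. GLI1, the hedgehog effector gene, fell to 0.463 ± 0.143 CPM (−1.62 ± 0.35), with at most 27 counts in a library. COPA (0.23 ± 0.06) and AZIN1 (0.20 ± 0.06) rose, the latter with no call after the GC adjustment (adjusted p = 0.312). BLCAP, NEIL1 and COG3 did not pass (adjusted p = 0.984, 0.844 and 0.19), although COG3 passed with total counts (0.0139). IGFBP7 had at most 3 counts in a library.

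Other deaminases moved in both directions. Of 28 listed, with the APOBEC1 cofactors included, 15 were tested, of which 3 were called higher and 6 lower (median −0.090, or 0.016 with total counts). ADAT2, the catalytic subunit gene of the enzyme that makes inosine in the tRNA anticodon, fell from 22.0 ± 0.487 to 10.3 ± 1.36 CPM (−1.09 ± 0.10, adjusted p = 1.02e-09), all 4 treated libraries being below all controls. Its partner gene ADAT3 (−0.27 ± 0.14, adjusted p = 0.117), which lies within SCAMP4, and ADAT1 (−0.090 ± 0.073, adjusted p = 0.303) did not pass. ADAT3 was called lower without control replicate 1 (adjusted p = 0.0248) or MARK3i replicate 2 (0.0488). The DNA cytidine deaminase gene APOBEC3B, which has close paralogs, fell from 8.84 to 6.53 CPM (−0.43 ± 0.13, adjusted p = 0.00654). Among enzymes that deaminate free adenosine or AMP, AMPD2 fell from 39.4 ± 4.27 to 25.5 ± 3.09 CPM (−0.62 ± 0.09). The scarcer ADA (0.64 ± 0.18) and AMPD3 (0.72 ± 0.21) rose, AMPD3 with overlapping libraries. ADA overlaps the more abundant PKIG on the opposite strand.

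Proteins that handle RNA with inosine and other proteins with a double-stranded RNA-binding domain showed no common direction. Among 8 genes for inosine RNA handling, 1 was called higher and 3 lower (median −0.085, or 0.020 with total counts). The paraspeckle protein genes PSPC1 (−0.56 ± 0.06) and RBM14 (−0.50 ± 0.07) fell, and ENDOV, which encodes a nuclease that cleaves at inosine, rose (0.53 ± 0.10). NONO fell by only 0.12 ± 0.05 (adjusted p = 0.0441), a call that ended with the replicate number as a block (0.066), with total counts (0.736) and in 7 of 8 fits that left out a library. MATR3 is listed under 2 overlapping gene models with few counts, and its level is not read; it is 1 of the 8 genes counted, and without it the median was −0.10. Among 16 tested genes for other proteins with the binding domain, 5 were called higher and 5 lower (median 0.045, or −0.025 after the GC adjustment), and 8 of the 18 listed also stand in another list. The microprocessor gene DGCR8 fell (−0.67 ± 0.07) and STAU2, a gene of RNA transport, rose (0.66 ± 0.08). Without MARK3i replicate 1, 3 of this list were called higher.

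**Figure D5:**
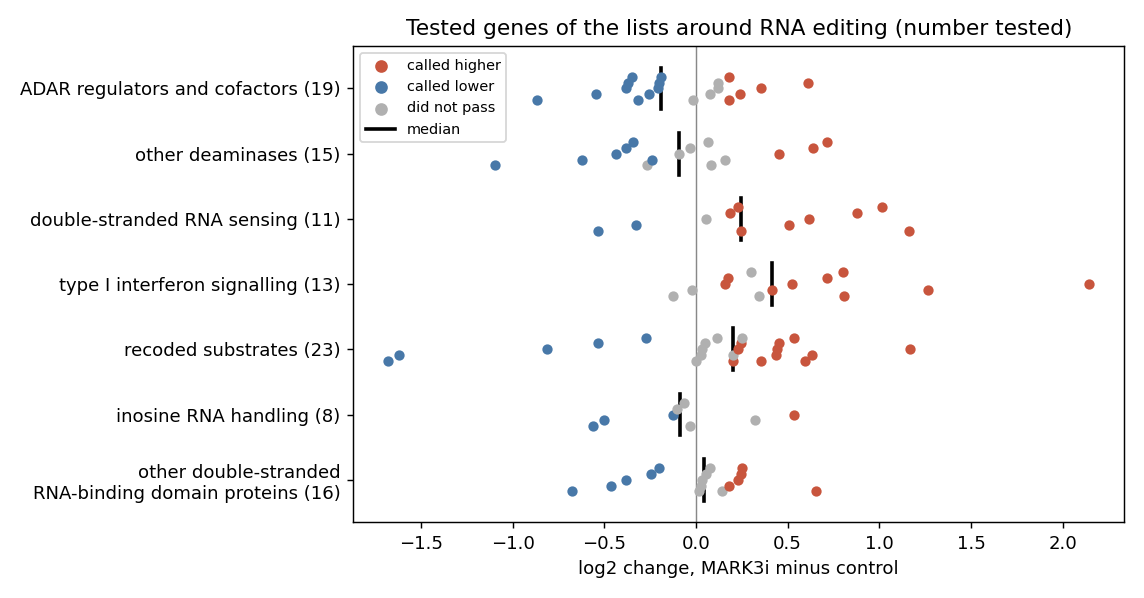
Log2 change (MARK3i minus control) of each tested gene of the 7 lists, with the number tested in brackets, coloured by the call at an adjusted p under 0.05, and the median of each list as a black bar. The medians run from −0.19 for regulators and cofactors to 0.41 for type I interferon signalling, against 0.021 for all tested genes.

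Since ADARB1 and ADARB2 are abundant in brain, markers of other cell types were read beside the members. Sums of markers are CPM without TMM scaling, and values of single markers are means with it. The summed level of 6 neuronal markers was 117.6 to 131.2 CPM in control and 56.4 to 73.4 CPM in MARK3i libraries, a difference that lay in GRIN1 alone (111.0 and 43.3 CPM). The other neuronal markers were scarce or level: TUBB3 (1.41 and 4.16 CPM), SYT1 (1.32 and 2.66) and RBFOX3 (0.336 and 0.727) were higher in treated libraries, SNAP25 was at 13.4 and 13.5 CPM and STMN2 had no count. Of the 4 tested, 2 were called higher and 1 lower, against 29.8% and 28.3% of all tested genes. The sum of 5 glial markers was 18.2 to 20.4 and 22.8 to 28.7 CPM, nearly all of it MBP, with GFAP at no more than 2 counts and MOG at 0. The sums of 5 leukocyte markers (1.30 to 1.66 and 0.781 to 1.93 CPM) and of 5 markers of stroma and endothelium (9.07 to 13.8 and 14.3 to 22.7 CPM) were low, with CD3E, PECAM1 and CDH5 at 0. The stromal sum was nearly all COL1A1 (11.3 and 18.0 CPM), while DCN was at 0.536 and 0.0397 CPM. The part of the neuronal, glial and stromal markers in the ADARB1 difference was not tested.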

How the data were processed

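RNA of 8 libraries of 22Rv1 cells was measured. The deposited values are raw counts per Ensembl gene, 1 file per library, for which the authors used hg38 and featureCounts, per the submitters' processing notes, which also name DESeq2. The aligner, annotation, tool versions and strand setting, not given in the sources used here, could affect genes that overlap others. Symbols, coordinates and exon lengths came from GENCODE 44 (58207 of 58735 identifiers matched), and promoter sequences from RefSeq (GRCh38.p14), which held ADAR and ADARB1.

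Counts were fitted with edgeR 4.0.16 in R 4.3.3: filterByExpr (16452 genes kept), TMM factors (0.96 to 1.059), glmQLFit with robust dispersion and glmQLFTest on the group alone, called at a Benjamini-Hochberg adjusted p under 0.05. The standard error is the absolute log2 change divided by the square root of F. The median was 0.096. The script was tested on simulated data. Every pair of libraries differed by more than sampling noise (chi-square per degree of freedom of at least 1.63).

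Members and lists were chosen with earlier results of these data known. The genes named were the members, genes overlapping them, called neighbours with an absolute log2 change of at least 1, up to 4 called genes per list and direction with the smallest p, a set fixed by name, and the 5 nearest profiles; the text names some of these, and a few results are not reported here. Alternatives were scaling by RLE or upper-quartile factors or by total counts, a filter of 1 CPM in 4 libraries or none, DESeq2 1.42.0, limma-voom (limma 3.58.1), the replicate number as a block, GC offsets, each library left out, an adjusted p under 0.01 and another length. Of 68 named genes, 28 overlap another tested gene. Beside those mentioned, these are CREB1, EIF2AK2, COPA, IGFBP7, BLCAP, NEIL1, AZIN1, NONO, PSPC1, RBM14, ENDOV, DGCR8, PRKRA, STRBP, DUS2, UBP1 and H3-3A.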

Additional observations from a re-analysis of the deposited data

Results flagged for a closer look

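Among 142 sets of 4 libraries of the genes named above with levels of at least 0.5 CPM, 4 held a library whose gap to the nearest other exceeded Dixon's critical share of the range, which chance passes in about 1 of 20 sets. None concerned ADAR or ADARB1. SSR4P1, the pseudogene at the 5′ end of ADARB1, stood at 3.97 CPM in control replicate 4, against 2.37 to 2.54 CPM in the other controls. TICAM1, an adaptor gene of double-stranded RNA sensing, stood at 12.99 CPM in MARK3i replicate 3, against 18.0 to 18.2 CPM in the other treated libraries. STAT2 stood at 71.3 CPM in MARK3i replicate 1, against 80.5 to 82.1 CPM. ENDOV stood at 13.5 CPM in control replicate 2, against 17.1 to 17.8 CPM in the other controls.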

How the results depend on the processing

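The ADARB1 change was 1.995 to 2.07 with each library left out, 2.16 with total counts and 2.04 to 2.10 under the other alternatives. The ADAR change was −0.051 to 0.013 with each library left out, 0.018 with upper-quartile factors and 0.092 with total counts, so its sign was not fixed. With the longest transcript as the length, ADARB1 was 6.07% of ADAR in control libraries. Called counts that moved by over 1.5 times were, with total counts, 8 regulators higher, 1 sensor lower and 3 binding-domain genes lower; with GC offsets, 3 binding-domain genes higher and 1 sensor lower; and at an adjusted p under 0.01, 5 sensors higher, 2 binding-domain genes higher and 1 sensor lower. With each library left out, sensors were called higher in 5 to 8 cases and lower in 1 to 2 (1 without control replicate 4), binding-domain genes higher in 3 to 5, inosine handling genes higher in 1 to 2 (2 without control replicate 3), and interferon signalling genes lower in 0 to 1 (1 without control replicate 1 or MARK3i replicate 1; 0 by edgeR with all libraries, DESeq2 and limma-voom, and 0 at an unadjusted p under 0.05). The cause was not tested. Among the other genes named, signs turned in these, which had not passed: BLCAP (−0.011 with RLE factors, −0.0061 with no filter, −0.011 with DESeq2, −0.067 with GC offsets), WWP2 (0.017 with upper-quartile factors, 0.091 with total counts, 0.084 with GC offsets), ADAT1 (0.016 with total counts), ADAT3 (0.065) and EIF2AK2 (−0.077), both with GC offsets. With each library left out, BLCAP ranged from −0.028 to 0.019, WWP2 from −0.058 to 0.0093, NEIL1 from −0.039 to 0.13 and EIF2AK2 from −0.054 to 0.14. Deviations of same-numbered libraries correlated at −0.088 to 0.13, and those of other pairs at −0.16 to 0.13. Of 4 numbers, 1 was best matched to its own. Control replicates 1 and 2 correlated positively with MARK3i replicates 1 and 3 and negatively with 2 and 4. For control replicates 3 and 4 the signs were the reverse, and the cause was not tested. With 4 libraries per group these values cannot exclude a pairing by number. With the replicate number as a block, 4912 genes were called higher and 4684 lower, and ADARB1 was at 2.05. Depth limits ADARB2 and the lowest list members.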
